A study of Drosophila melanogaster with 20 samples.

Results

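Mediator is the large complex that bridges DNA-bound activators and RNA polymerase II, the enzyme that transcribes protein-coding genes. In textbook terms it has a head and a middle module that contact the polymerase, a tail module that contacts activators, the MED14 subunit that links these modules, and a separable kinase module built from Cdk8, Cyclin C, MED12 and MED13. In *Drosophila* MED12 and MED13 are the products of *kohtalo* (*kto*) and *skuld* (*skd*). The genes described here are the rows of the count table whose FlyBase symbol starts with MED and a number, apart from 1 gene that is not used here, together with *kto*, *skd*, *CycC* and *Cdk8*. They are 28 of the 17807 genes counted. The head is represented by 7 genes, the middle by 8, the scaffold by *MED14*, the tail by 8 and the kinase module by 4.

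The libraries came from pools of whole *Drosophila melanogaster* embryos of stage 12 to 14, with 4 biological replicates for each of 5 genotypes, and WT replicate 3 was labelled stage 12 to 15. Ada2b is a subunit that activates the histone acetyltransferase Gcn5, and its PB isoform belongs to the coactivators SAGA and ADA whereas its PA isoform belongs to the CHAT complex. The null embryos carried the null alleles *Ada2b*842 and *Ada2b*1 over each other, PA and PB embryos carried in addition a single copy of a transgene for that isoform under *Ada2b* regulatory sequences, and PA+PB embryos carried both transgenes. WT embryos lacked the *Ada2b* alleles. All 5 genotypes carried *elav-Gal4*, which is active in neurons, and a *UAS-GFP* reporter that was used to pick embryos by hand, so that PA+PB and WT served as a pair of controls.

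The library totals differed strongly between genotypes. Gene counts ranged from 17874297 to 29013029 in the null, from 27944272 to 35678749 in WT, from 4828612 to 13973822 in PA+PB, from 2569525 to 10772137 in PA and from 1665636 to 33363718 in PB. *Ada2b* itself, the targeted gene, was at 30.7 to 47.1 CPM (counts scaled to a library total of 1000000 after TMM normalization) in the null and at 105.8 CPM or more in each of the other 16 libraries, in the direction of the labels. Of the tissue markers, *elav*, *Mef2*, *grh* and *srp* were at 13.6 CPM or more in all 20 libraries. Other genes of the same lists were at 0 in some libraries, such as *nSyb* in PA replicates 1 and 2 and PB replicate 1. *brp* and *Mlc2* were at 0 in PA replicate 2, and *kkv* in PA+PB replicate 3. The muscle gene *Mhc* ranged from 12.1 to 5195 CPM among the WT libraries. The summed CPM of the maternal transcripts *vas*, *osk* and *bcd* (3 of the 4 listed genes were matched) was 10.7 to 16 in the null, 198 to 413 in WT, 40.1 to 261 in PA+PB, 66.8 to 162 in PA and 0 to 159 in PB. The summed glial markers (3 of 3 matched) were at 167 to 214 CPM in the null beside 63.0 to 147 CPM in WT and 12.6 to 141 CPM in PA+PB, and the blastoderm genes *eve* and *ftz* summed to 20.6 to 35.8, 2.97 to 20.4 and 5.32 to 24.6 CPM. The part of these markers in the results that follow was not tested.

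Of the 28 genes, 27 had counts and were tested. In all 4 null libraries and all 4 WT libraries each of these 27 genes had at least 1 count. In PA the number with at least 1 count was 25, 18, 27 and 21 in replicates 1 to 4, in PB it was 11, 22, 18 and 27, and in PA+PB it was 27, 27, 22 and 27. After every library had been thinned to 1656080 counts the same numbers were found in PA, PB and PA+PB, and only WT replicate 4 lost a gene, to 26. Over all 10904 genes tested, 96.1% to 97.4% had a count in the null, 88.0% to 97.1% in WT, 65.7% to 95.9% in PA+PB, 48.8% to 78.3% in PA and 43.0% to 88.3% in PB. The Mediator genes therefore dropped out in the same libraries as other genes, and 22 of the 27 were at 0 in at least 1 library. A 0 in the shallowest library (PB replicate 1) allows up to 1.80 CPM, and in the deepest (WT replicate 1) up to 0.0841 CPM, by counting error alone.

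**Figure D1:**
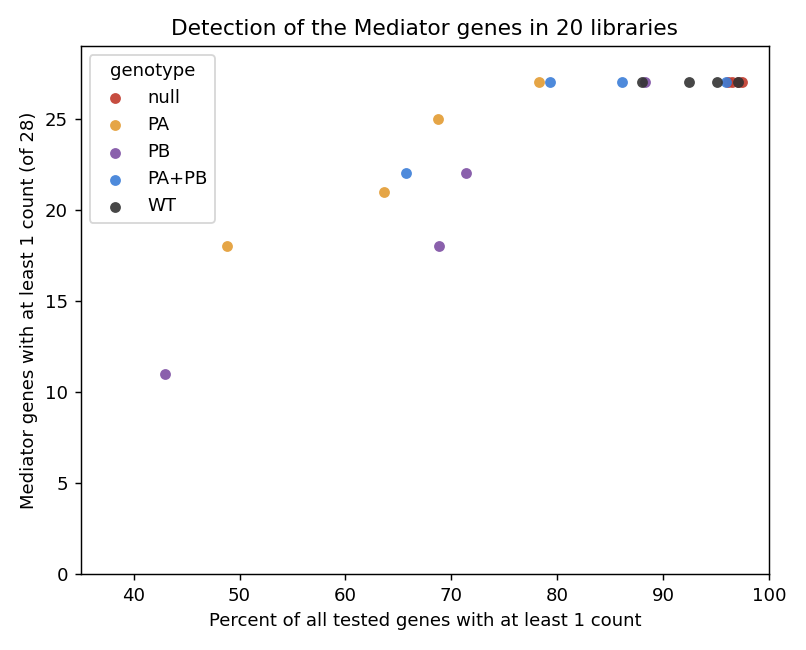
Number of Mediator genes with at least 1 count (y axis, of 28) against the percent of all tested genes with at least 1 count (x axis) in each of the 20 libraries, coloured by genotype. The null and WT libraries sit at 27 genes, and the lowest point is PB replicate 1 with 11 genes.

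*MED9* is the gene without a count. It was at 0 in all 20 libraries and was therefore not tested. The gene lies on chromosome 2R from 18167255 to 18168380 on the plus strand (dm6), and 100% of its exonic bases are also exonic in *CG42518* on the same strand. Reads that fall in 2 genes are left out by htseq-count with default settings, so the value of 0 says nothing about the RNA of *MED9*. Smaller overlaps with a gene on the other strand were found for *MED21* (26.6% of exonic bases, with *Set1*), *MED24* (22.6%), *MED6* (16.3%), *MED8* (13.5%), *CycC* (12.5%) and *MED22* (10.5%, with *CG3708*). Whether the libraries kept the strand is not given in the sources used here.

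In WT the transcripts of the complex were not equally abundant. In CPM per kilobase of exon (RPKM), *MED22*, a head subunit, was the highest at 164 ± 28.6 (SD, n = 4). It was followed by *MED15*, a tail subunit that activators contact, at 75.6 ± 12.4, by *MED21* of the middle at 74.4 ± 23.7 and by *skd* at 63.8 ± 8.94. These 3 genes overlapped within their SDs. The lowest were *MED30* at 5.01 ± 3.52, *MED20* at 4.86 ± 0.865 and *Cdk8*, the kinase itself, at 2.13 ± 1.05 RPKM. Within the kinase module *CycC* was at 21.4 ± 4.03 and *kto* at 13.1 ± 7.95 RPKM, so that *skd* had the highest level per length and *Cdk8* the lowest. In the null *MED22* again had the highest level per length (114 ± 31.3 RPKM), *MED19* stood second at 83.7 ± 5.84 RPKM after being ninth in WT, and *Cdk8* was again last at 6.35 ± 1.94 RPKM.

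Summed over the genes, Mediator transcripts reached 1438 to 1874 CPM in the null, 1906 to 2401 in WT, 1808 to 2262 in PA+PB, 1679 to 2091 in PA and 1044 to 2556 in PB. All null libraries were below all WT libraries in this sum, in which *skd* weighs most, but by a narrow margin (1874 beside 1906 CPM). Whether the sum also separates the groups with DESeq2 size factors was not tested. The mean of log2 CPM over the 27 genes, which weighs each gene equally, was 5.01 to 5.29 in the null and 4.64 to 5.21 in WT, and these ranges overlapped. With DESeq2 size factors they did not, at 5.04 to 5.33 in the null and 4.50 to 5.01 in WT. It was 3.71 to 5.13 in PA+PB, 2.82 to 5.06 in PA and 0.86 to 5.35 in PB. In whole embryos fewer cells that contain a transcript and less of it per cell cannot be told apart.

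Loss of Ada2b was compared with both controls. In the null 5 of the 27 genes were above all 8 control libraries in CPM, *MED17* and *MED18* of the head, *MED19* of the middle, *MED30* of the tail and *Cdk8*. Another 3 genes were below all 8, *MED21* of the middle and *MED15* and *MED27* of the tail. These were 18.5% and 11.1% of the Mediator genes, beside 10.2% above and 14% below among all 10904 genes tested. With DESeq2 size factors *MED25* and *kto* were added to the first list and *skd* to the second (background 14.3% above and 11.4% below). Without the library of fewest genes in each of PA, PB and PA+PB (PA replicate 2, PB replicate 1 and PA+PB replicate 3) both lists held the same genes (background 10.6% and 14.3%).

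The test of each gene was edgeR's quasi-likelihood test over all 20 libraries with 1 factor of unwanted variation, and a gene was called at a Benjamini-Hochberg adjusted p (FDR) under 0.05 with a log2 change of 0.5 or more in either direction. No Mediator gene was called in the null against WT (background 0.0459% higher and 4.56% lower) or against PA+PB (0.11% higher and 3.29% lower). At an unadjusted p under 0.05, 1 gene was higher and 3 were lower against WT (background 1.68% and 12.6%), and 1 was higher and 2 were lower against PA+PB (3.34% and 13.9%). A DESeq2 Wald test with the same factor called *skd*, *MED1* and *MED27* lower against WT (background 9.27%), and *MED27* lower against PA+PB (11.9%). The median log2 fold change of the 27 genes was −0.61 against WT and −0.79 against PA+PB, beside −0.18 and −0.26 over all genes tested. These medians depended on the factor, since without it they were −0.03 and 0.17 for the Mediator genes and 0.40 and 0.49 for all genes. The factor was at −0.244 to −0.233 in the null, below all other libraries, and at −0.227 to −0.0276 in WT. It was highest in PB replicate 1 (0.860), PA replicate 2 (0.569) and PA+PB replicate 3 (0.264). Its part in the null results can therefore not be fully told apart from that of genotype.

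The number of calls against WT also depended on which libraries entered the fit. When only the null and WT libraries were fitted, 3979 genes were called in all, and 16 of the 27 Mediator genes were among them, 9 higher (*kto*, *Cdk8*, *MED18*, *MED8*, *MED14*, *MED30*, *MED19*, *MED17* and *MED28*, background 17.8%) and 7 lower (background 18.9%, *skd*, *MED6*, *MED15*, *MED4*, *MED1*, *MED27* and *MED21*). In the same kind of fit with PA+PB no Mediator gene was called (background 6.46% in either direction). Without PA replicate 2, PB replicate 1 and PA+PB replicate 3, an alternative chosen after seeing the data, 4 genes were called against WT, *MED15*, *MED1* and *MED27* lower (background 10.5%) and *MED19* higher (4.55%), and none against PA+PB (7.44% in either direction). In CPM alone 8 genes of the null were above all WT libraries (background 18.8%) and 7 below (19.8%), while 6 were above all PA+PB libraries (17.7%) and 4 below (15.7%).

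**Figure D2:**
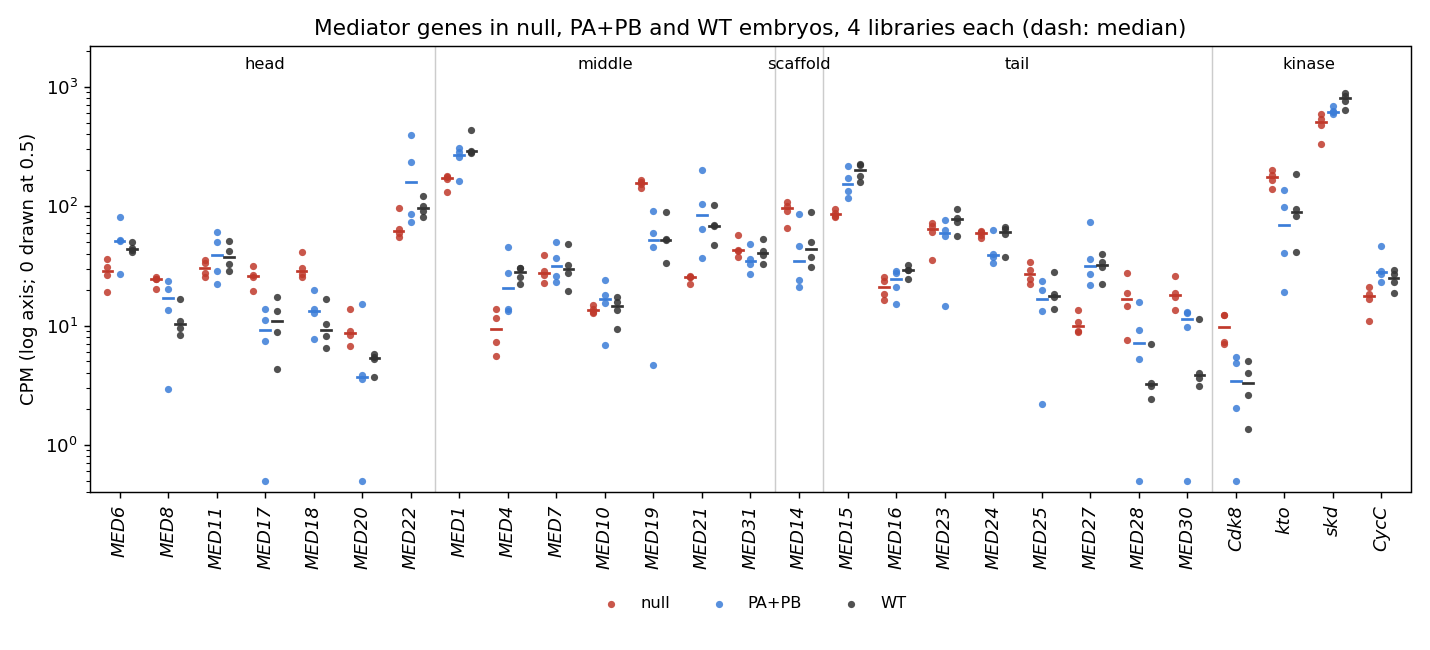
CPM of the 27 Mediator genes with counts (y axis, log scale, with 0 drawn at 0.5) in the 4 null, 4 PA+PB and 4 WT libraries, grouped by module. Each point is a library and each dash a median. Null points of *MED19* lie above and those of *MED21*, *MED15* and *MED27* lie below the points of both controls.

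In the head module, *MED17*, which contacts the polymerase, was at 31.7, 25.6, 19.6 and 26.6 CPM in the null. In WT it was at 4.33, 13.2, 17.3 and 8.79 CPM and in PA+PB at 13.6, 7.48, 0 and 11 CPM. All null libraries were above all controls, but the fitted log2 fold change was 0.50 ± 1.15 (SE) against WT (FDR = 0.941) as well as 1.11 ± 1.14 against PA+PB (FDR = 0.711, edgeR). The sign turned against WT without PA replicate 2 (−0.0039) and against PA+PB with only the groups compared (−0.031). *MED18*, which pairs with MED20 in the head of the yeast complex, was at 41.4, 25.3, 27 and 30.1 CPM in the null beside 6.47 to 16.6 CPM in WT and 7.73 to 19.8 CPM in PA+PB. Its groups did not overlap either, with log2 fold changes of 1.82 ± 1.02 against WT (FDR = 0.474) as well as 1.51 ± 1.01 against PA+PB (FDR = 0.492, edgeR).

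The other head genes did not separate the null from both controls. *MED8* (20.2 to 25.3 CPM in the null) and *MED20* (6.68 to 13.8 CPM) were above all WT libraries (8.37 to 16.8 and 3.73 to 5.76 CPM) but overlapped with PA+PB. *MED6* was at 19 to 36.3 CPM in the null and 41.1 to 49.8 CPM in WT, again overlapping with PA+PB at 27.3 to 81.3 CPM. *MED11* and *MED22*, which form a pair in the yeast head, overlapped in the null with both controls.

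In the middle module the gene with the clearest higher level in the null was *MED19*, whose product binds Hox proteins in *Drosophila*. It was at 159, 167, 153 and 141 CPM in the null, at 33.6, 53.2, 89.5 and 51.7 CPM in WT and at 91.9, 45.6, 4.64 and 59.2 CPM in PA+PB. The null libraries were close to each other and above all 8 controls, and the mean was 2.72-fold that of WT and 3.08-fold that of PA+PB. In the fit it differed from WT by 1.42 ± 0.63 on the log2 scale (FDR = 0.294) and from PA+PB by 1.60 ± 0.63 (FDR = 0.188, edgeR). It was the only Mediator gene with an unadjusted p under 0.05 in the higher direction against both controls (background 0.926%), which share the null libraries.

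*MED1*, the subunit that contacts nuclear receptors in mammals, was the gene with an unadjusted p under 0.05 in the lower direction against both controls (background 9.9%). It was at 174, 133, 170 and 179 CPM in the null, at 292, 279, 282 and 433 CPM in WT and at 164, 282, 305 and 256 CPM in PA+PB. All null libraries were below all WT libraries, whereas PA+PB replicate 1 lay among the null values. The log2 fold change from WT was −1.10 ± 0.34 (FDR = 0.0760), and it was −0.86 ± 0.36 against PA+PB (FDR = 0.221, edgeR). *MED1* was called against WT without PA+PB replicate 1 (−1.12, FDR = 0.0481) and without PA+PB replicate 3 (−1.10, FDR = 0.0426).

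*MED21*, which forms the hinge of the middle module with MED7 in yeast, was at 22.3, 25.3, 25.9 and 25.5 CPM in the null. It was at 69.4, 103, 47.5 and 68.2 CPM in WT and at 36.7, 105, 202 and 64.1 CPM in PA+PB. The null values were below all controls, yet the controls spread from 36.7 to 202 CPM and the log2 fold changes of −1.55 ± 1.11 against WT (FDR = 0.651) as well as −2.06 ± 1.24 against PA+PB (FDR = 0.424, edgeR) were not called. Its partner *MED7* was at 22.7 to 38.7 CPM in the null and 19.4 to 48.5 CPM in WT, so that the groups overlapped. *MED4* was lower than in WT in every null library (5.54 to 13.7 against 22.1 to 30.6 CPM), but PA+PB replicates 1 and 4 had 13.6 and 13.3 CPM. *MED10* and *MED31* overlapped with both controls, at 12.8 to 14.7 and 37.3 to 57.3 CPM in the null.

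The scaffold gene *MED14* was among the 2 genes with the smallest fitted change in the null, with log2 fold changes of 0.28 ± 0.78 against WT (FDR = 0.950) as well as 0.34 ± 0.83 against PA+PB (FDR = 0.904, edgeR), the latter turning to −0.067 without PA replicate 2. This place rested on the factor, since without it the changes were 0.82 and 1.05. It was at 101, 65.9, 91.6 and 109 CPM in the null, 31.2, 37.7, 89.2 and 50.1 CPM in WT and 86.8, 23.9, 21 and 46.2 CPM in PA+PB. The null libraries overlapped with WT replicate 3 and with PA+PB replicate 1. The other was *MED24* of the tail, at 62.0, 53.7, 60.5 and 57.9 CPM in the null, 37.5, 57.9, 64.0 and 67.0 CPM in WT and 63.3, 37.3, 33.7 and 40.0 CPM in PA+PB. Its log2 fold changes were −0.14 ± 0.87 and 0.16 ± 0.89 (FDR = 0.980 and 0.956, edgeR), so that a change within these SEs was not detectable, and the sign was not stable (0.048 against WT without the factor).

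In the tail module *MED15* was at 82.7, 80.8, 95.3 and 88.1 CPM in the null, at 179, 226, 159 and 219 CPM in WT and at 118, 173, 215 and 133 CPM in PA+PB. The groups did not overlap, and the log2 fold change from WT was −1.52 ± 0.72 (FDR = 0.346) beside −1.60 ± 0.81 from PA+PB (FDR = 0.324, edgeR). *MED15* was called against WT without PB replicate 1 (−1.14, FDR = 0.0184). *MED27* was at 13.5, 8.93, 8.79 and 10.7 CPM in the null, at 33.8, 39.6, 22.3 and 31.0 CPM in WT and at 21.8, 36.1, 74.2 and 26.8 CPM in PA+PB. Again all null values were below all controls, with log2 fold changes of −1.80 ± 0.89 (FDR = 0.376) and −2.44 ± 1.01 (FDR = 0.214, edgeR). The DESeq2 Wald test gave nearly the same changes, −1.78 and −2.38, at an FDR of 0.0491 and 0.00651.

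*MED30* went the other way. It was at 26.2, 13.4, 17.3 and 18.8 CPM in the null, 3.60, 3.14, 11.3 and 4.04 CPM in WT and 13, 9.81, 0 and 12.8 CPM in PA+PB. The null libraries were above all controls, by a narrow margin in PA+PB, where 13 stood beside 13.4 CPM. The log2 fold changes were 1.98 ± 1.51 against WT (FDR = 0.680) beside 1.26 ± 1.48 against PA+PB (FDR = 0.755, edgeR), and the latter was −0.69 with only the groups compared. *MED28* was at 7.59 to 27.6 CPM in the null and 2.40 to 6.94 CPM in WT, but overlapped with PA+PB (0 to 15.7 CPM). *MED16*, *MED23* and *MED25* overlapped with the controls in CPM.

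The 2 largest genes of the kinase module differed in direction. *skd* (MED13), the most highly counted Mediator gene, was at 474, 332, 534 and 595 CPM in the null, at 757, 644, 845 and 894 CPM in WT and at 613, 588, 622 and 697 CPM in PA+PB. It was below all WT libraries, with a log2 fold change of −0.76 ± 0.25 (FDR = 0.104, edgeR), whereas null replicate 4 lay within the PA+PB range. *kto* (MED12) was at 167, 138, 200 and 184 CPM in the null, at 41.2, 94.0, 188 and 83.0 CPM in WT and at 138, 40.2, 19.2 and 98.2 CPM in PA+PB. WT replicate 3 was among the null values and PA+PB replicate 1 was just under the lowest of them. The log2 fold change from WT was 0.57 ± 0.58 (FDR = 0.801), and it was 1.06 ± 0.58 against PA+PB (FDR = 0.368, edgeR). The difference between the 2 genes in their change was not tested.

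*Cdk8* showed how far a fitted direction rested on the factor. It was at 7.0, 7.31, 12.3 and 12.3 CPM in the null, above all controls, which were at 1.37, 5.05, 4.0 and 2.61 CPM in WT and 2.04, 4.82, 0 and 5.48 CPM in PA+PB. The fitted log2 fold change with the factor was nevertheless −0.71 ± 1.29 against WT (FDR = 0.920) beside −0.95 ± 1.53 against PA+PB (FDR = 0.838, edgeR). Without the factor it was 1.58 and 1.65, so that no direction is given for *Cdk8* here. *CycC*, which encodes the cyclin of this kinase, was at 11 to 20.9 CPM in the null, below PA+PB at 23.2 to 46.4 CPM and overlapping with WT at 18.6 to 29.1 CPM. Over the 27 genes the sign of the fitted change differed from that of the mean CPM at 5 genes against WT and at 5 against PA+PB.

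**Figure D3:**
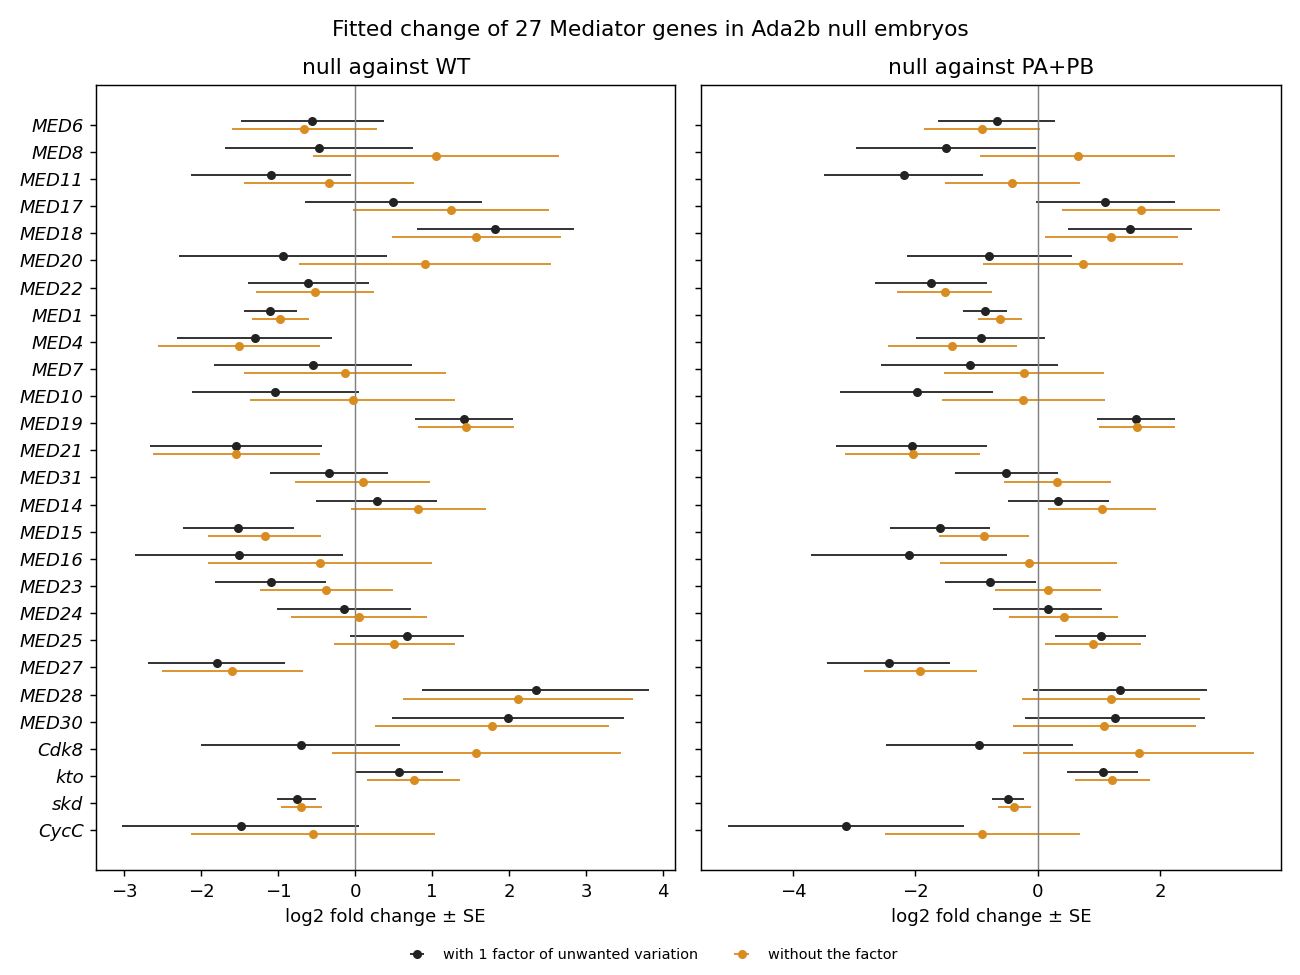
Log2 fold change ± SE (x axis) of 27 Mediator genes in null embryos against WT (left) and against PA+PB (right), fitted with 1 factor of unwanted variation (black) and without it (orange). *MED19* lies right of 0 and *MED1*, *MED21* and *MED27* left of 0 in both fits, whereas *Cdk8*, *MED8*, *MED20* and *MED31* change side in both panels.

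The controls were also compared with each other by the same test. No Mediator gene was called in WT against PA+PB (background 0.0183% higher and 0% lower), none had an unadjusted p under 0.05 (2.73% and 0.963%), the DESeq2 Wald test called none (0.486% in either direction), and in CPM none separated the groups (3.12% above and 1.36% below). The precision was limited, with log2 fold changes of −1.14 ± 0.83 for *MED22* and −1.65 ± 1.66 for *CycC* in this comparison. The absence of calls therefore does not show equal levels in the controls. Among the controls PA+PB replicate 3 stood apart. It had the highest level of *MED22* (393 CPM), *MED21* (202 CPM), *MED27* (74.2 CPM) and *CycC* (46.4 CPM) and the lowest of *MED19* (4.64 CPM), *MED14* (21 CPM) and *kto* (19.2 CPM), and 5 Mediator genes were at 0 in it.

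Embryos with PB as the only isoform held the single called gene. *MED22* lies on the X chromosome from 928139 to 928860 on the plus strand (dm6). It was at 0, 10.7, 14.1 and 23.5 CPM in PB and at 73.5, 235, 393 and 86.1 CPM in PA+PB. It was at 101, 121, 80.7 and 91.8 CPM in WT, 96.5, 59.0, 64.1 and 55.4 CPM in the null and 43.4, 82.1, 74.3 and 13.6 CPM in PA. PB was below both controls and the null without overlap, and overlapped only with PA replicate 4. Against PA+PB *MED22* fell by 4.09 ± 0.88 on the log2 scale (FDR = 0.0125, edgeR), in a comparison in which 4.1% of all genes were called lower and 2.58% higher.

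The call of *MED22* was not stable. Against WT its log2 fold change was −2.95 ± 0.83 (FDR = 0.0820) and against the null −2.35 ± 0.86 (FDR = 0.245), both short of the threshold. Against PA+PB the call was lost without PB replicate 2 (−4.03, FDR = 0.0513), without PA+PB replicate 3 (−3.29, FDR = 0.0725) and with only the groups compared (−4.02, FDR = 0.271, edgeR). It was kept without PB replicate 4, which had far more counts than the other PB libraries (−4.62, FDR = 0.00963). Against WT *MED22* was called by the DESeq2 Wald test (FDR = 0.00705), without PB replicate 1 (−2.69, FDR = 0.0140), without PB replicate 4 (−3.55, FDR = 0.0313) and without PA replicate 2, PB replicate 1 and PA+PB replicate 3 (−2.52, FDR = 0.0160, edgeR). PB replicate 4 also differed in the muscle gene *Mhc*, at 12.6 CPM beside 3628.5, 2208.6 and 10545 CPM in replicates 1 to 3. Its *bcd*, at 4.43 CPM, was below the 52.2 and 149 CPM of replicates 2 and 3, but replicate 1 was at 0. The hemocyte gene *srp* and the epidermal gene *grh* were called higher in PB against PA+PB (2.29 ± 0.60 with FDR = 0.0311 and 1.97 ± 0.56 with FDR = 0.0423, edgeR). The part of these differences in the result was not tested, and the calls of *srp* and *grh* were not recomputed under other settings of the fit.

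No other Mediator gene was called in PB, neither against PA+PB nor against WT (background 0.193% higher and 0.679% lower). At an unadjusted p under 0.05, 1 gene was higher and 3 were lower against WT (background 11.3% and 10.7%), and 2 were higher and 3 lower against PA+PB (15.4% and 14.5%). Beside *MED22*, 3 genes were below all 8 controls in CPM, *MED21*, *MED27* and *CycC* (background 8.62%), and none was above all 8 (1.67%). *MED21* was at 0, 22.1, 16.7 and 11.2 CPM, with log2 fold changes of −2.51 ± 1.14 against WT (FDR = 0.205) as well as −3.02 ± 1.16 against PA+PB (FDR = 0.0964, edgeR). *MED27* was at 0, 16.7, 20.3 and 14.3 CPM and *CycC* at 0, 0, 0 and 16.7 CPM. In the higher direction *kto* was at 176, 199, 88.7 and 384 CPM, with log2 fold changes of 1.54 ± 0.64 against WT (FDR = 0.177) as well as 2.03 ± 0.65 against PA+PB (FDR = 0.0605, edgeR). Replicates 1 and 3 lay within the control range. *MED1* was at 75.4, 132, 143 and 226 CPM, with a log2 fold change of −0.95 ± 0.36 against WT (FDR = 0.150, edgeR). The DESeq2 Wald test called only *MED22* against WT (background 10.3% in either direction), and *MED22*, *MED21*, *CycC* and *kto* against PA+PB (21.8%). Without PB replicate 4, 4 genes were called lower against WT (*MED22*, *CycC*, *MED16* and *MED1*, background 4.97%) and 3 against PA+PB (*MED22*, *CycC* and *MED16*, background 8%).

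In embryos with PA as the only isoform no Mediator gene was called against WT (background 0.0275% higher and 0.0825% lower) or against PA+PB (0.147% and 0.385%). At an unadjusted p under 0.05, 1 gene was higher and 1 lower against WT (background 7.41% and 7.07%), and 2 were higher and 3 lower against PA+PB (11% and 9.54%). The DESeq2 Wald test called 2 and 4 genes (7.76% and 13.5% of all genes in either direction). *MED10*, a small subunit of the middle module, had the smallest p. It had 0, 0, 19 and 0 counts in PA, or 1.84 CPM in replicate 3. The same gene was at 12.8 to 14.7 CPM in the null, 9.35 to 17.3 CPM in WT, 6.84 to 24.0 CPM in PA+PB and 0 to 18.1 CPM in PB. PA was below all 8 controls, as it was for *MED21* (4.22, 23.1, 18.1 and 0 CPM), among 4.93% of all genes. By counting error alone, a count of 0 allows up to 0.462, 1.17 and 0.363 CPM in PA replicates 1, 2 and 4, beside 6.84 CPM in the lowest control. These limits do not cover the loss of detection in PA libraries, so they do not place *MED10* below the controls. *MED8*, for example, was at 6.25, 0, 33.5 and 0 CPM in PA replicates 1 to 4.

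The log2 fold change of *MED10* in PA was −4.03 ± 1.31 against WT (FDR = 0.215), −4.98 ± 1.32 against PA+PB (FDR = 0.0741), −3.00 ± 1.37 against the null (FDR = 0.257) and −4.41 ± 1.31 against PB (FDR = 0.140, edgeR). Without PA replicate 3, the only PA library with counts of it, *MED10* was called against both controls and the null, but the group is then at 0 and the fitted value is no measure of size. By the DESeq2 Wald test it was called in all 4 comparisons (FDR = 0.000390 against WT, 2.87e-06 against PA+PB, 0.0133 against the null and 4.57e-05 against PB). *MED14* had the opposite sign in PA, at 69.8, 90.3, 57.7 and 113 CPM, with log2 fold changes of 2.39 ± 1.03 against WT (FDR = 0.302) as well as 2.44 ± 0.97 against PA+PB (FDR = 0.169, edgeR). Without the factor these were 0.67 and 0.89, and in CPM *MED14* overlapped with both controls. Only 18, 21 and 25 Mediator genes had a count in PA replicates 2, 4 and 1, and the part of this loss of detection in the PA results was not tested.

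**Figure D4:**
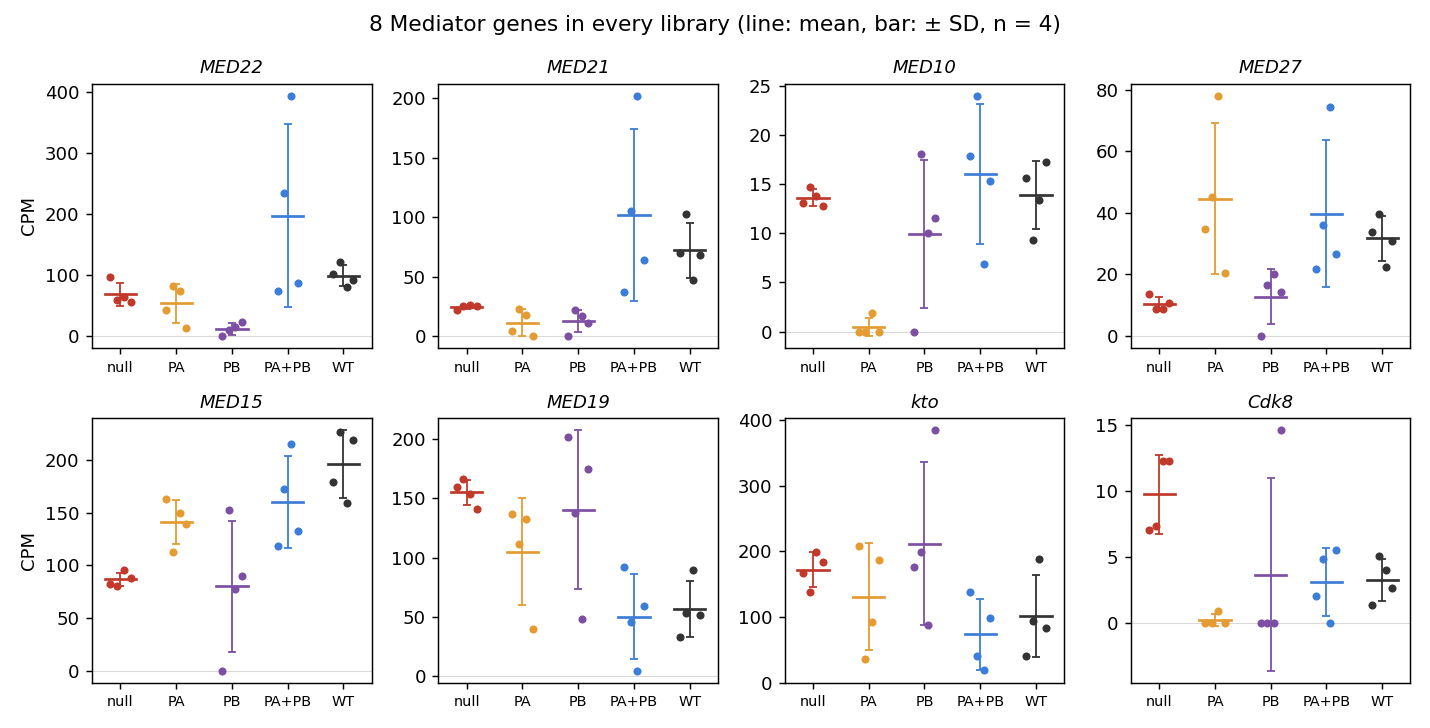
CPM (y axis) of 8 Mediator genes in all 20 libraries by genotype, with each library as a point, the mean as a line and ± SD as a bar (n = 4). *MED22* is lowest in PB (0 to 23.5 CPM), *MED10* lowest in PA (0 to 1.84 CPM) and *MED19* has its highest mean and least spread in the null (141 to 167 CPM), below PB replicates 1 and 4 (202 and 174 CPM).

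The isoforms were also compared with the null and with each other. No Mediator gene was called in PA against the null (background 1.87% higher and 0.431% lower), in PB against the null (0.0642% and 0.0825%) or in PA against PB (0% and 0.00917%). At an unadjusted p under 0.05, 3 genes were higher and 1 lower in PA against the null (background 13% and 4.89%), none was higher and 1 lower in PB against the null (10.6% and 2.83%), and 3 were higher and 1 lower in PA against PB (8.98% and 12.4%). The DESeq2 Wald test called 2, 0 and 3 (13.9%, 3.94% and 13% of all genes in either direction). *MED27* was among those in PA, where it was at 34.6, 45.1, 78.0 and 20.3 CPM, above all null libraries, by a narrow margin above all PB libraries, and overlapping with both controls. Its log2 fold change was 2.77 ± 1.10 against the null (FDR = 0.188) and 2.11 ± 0.93 against PB (FDR = 0.204, edgeR). *MED15* in PA (163, 113, 150 and 139 CPM) was likewise above all null libraries. *MED19* in PA (137, 112, 133 and 39.6 CPM) stayed below the lowest null library, as did *Cdk8* (0, 0, 0.872 and 0 CPM), *MED10* and *MED31*. These 4 genes were among 28.2% of all genes that were higher in the null than in PA without overlap, and *MED15* and *MED27* among 9.29% that were lower.

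The polymerase and the general factors that Mediator works with were described from a list of their genes. *intersex* (*ix*), which encodes the MED29 subunit and does not carry a MED symbol, was at 18.1 to 37.0 CPM in the null beside 30.0 to 46.0 CPM in WT and 16.2 to 145 CPM in PA+PB, and was not called. Of 12 RNA polymerase II subunits 11 were tested, and 1 was called lower in the null against WT (background 4.56%) and against PA+PB (3.29%). This was *Polr2A*, which encodes the largest subunit. It was at 342, 231, 380 and 398 CPM in the null beside 743 to 1037 CPM in WT and 536 to 697 CPM in PA+PB, below all controls, and fell by 1.60 ± 0.30 (FDR = 0.00547) and by 1.27 ± 0.31 (FDR = 0.0300, edgeR) on the log2 scale. The median of the 11 genes was −1.10 against WT and −1.91 against PA+PB. Between the controls, in WT against PA+PB, the median was −1.09, with 10 of the 11 genes lower. How far these medians depended on the factor was not tested.

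Of 18 general factors 17 were tested and 1 was called lower in the null against both controls (background 4.56% against WT and 3.29% against PA+PB). This was *TfIIFalpha*, a subunit of the factor TFIIF that travels with the polymerase, at 127, 130, 114 and 119 CPM in the null beside 333 to 622 CPM in WT and 360 to 871 CPM in PA+PB. It fell by 1.98 ± 0.41 (FDR = 0.00816) and by 2.25 ± 0.44 (FDR = 0.0107, edgeR) on the log2 scale. The median of the 17 genes was −0.54 against WT and −0.61 against PA+PB, beside −0.15 in WT against PA+PB. In PA both genes were higher than in the null, by 1.52 ± 0.36 for *Polr2A* (FDR = 0.0309) and 2.65 ± 0.50 for *TfIIFalpha* (FDR = 0.0124, edgeR) on the log2 scale (background 1.87% higher). No gene of either list was called in PA against WT (background 0.0275% higher and 0.0825% lower) or against PA+PB (0.147% and 0.385%). In PB against PA+PB the general factor genes *TfIIA-S* and *TfIIB* were called and fell by 1.87 and by 1.52 on the log2 scale (background 4.1% lower). None of either list was called in PB against WT (background 0.193% higher and 0.679% lower). *Polr2D* and *Tfb5* had 0 counts in all 20 libraries and were not tested. The maternal gene *bcd* in the null fell by 5.58 ± 1.14 against WT (FDR = 0.00735) and fell by 5.15 ± 1.21 against PA+PB (FDR = 0.0246, edgeR) on the log2 scale, and whether the change of *Polr2A* and *TfIIFalpha* is connected with it was not tested. The calls of *Polr2A*, *TfIIFalpha*, *TfIIA-S*, *TfIIB* and *bcd* were not recomputed under other settings of the fit, so their stability is not known.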

How the data were processed

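RNA was sequenced from ribodepleted libraries of pooled whole embryos, 4 for each of the 5 genotypes, which were grouped by the labels. The authors trimmed reads with Trimmomatic, mapped them with HISAT2 to the dm6 genome and deposited raw counts per gene from htseq-count (HTSeq 0.11.1) at default parameters, with no normalization. The header of the deposited table has 1 empty cell more than its rows, and the 20 column names were taken in order after it. The table held 17807 genes, 2 transgene rows and 5 summary rows of htseq-count (unassigned or ambiguous reads and the like), which took 84.6% of the whole table and were left out with the transgenes. Depth after this step was 1665636 to 35678749 counts per library.

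Gene symbols were matched for 17710 identifiers from the Ensembl annotation of release 115, whose exons on dm6 gave gene lengths and overlaps. After removal of 138 rRNA genes and a filter on low counts (filterByExpr), 10904 genes were tested with edgeR 4.0.16 in R 4.3.3. TMM scaling was used, all 20 libraries entered the fit, and the design had a term for 1 factor of unwanted variation, taken from differences among replicates with code written after the RUVs method. The number of factors the authors used is not given in the sources used here. P-values were adjusted over all genes tested. CPM were scaled by TMM, log2 CPM had a prior count of 2 and RPKM were CPM per kilobase of exon. The SE was taken from the quasi-likelihood F statistic. Upper limits for a count of 0 were set at 3 counts over the library total, without TMM scaling, and cover counting error only. The steps were tested on simulated data, with changes in highly counted genes only and a factor drawn independently of genotype. That simulation did not cover the loss of detection in some libraries or a factor that differs between genotypes. DESeq2 1.42.0 gave an alternative, among the others given with their effects further on.

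The Mediator genes and the lists of other genes were chosen with earlier results of these data known. Values in every library are given for genes called in at least 1 comparison, for up to 3 genes with the smallest unadjusted p in null, PA or PB against either control, and for the 2 genes with the smallest change in the null. *Cdk8*, *MED15*, *MED17*, *MED18* and *MED30*, the further comparisons of *MED21*, *MED27* and *kto*, and the ranges of the other genes were chosen after their values were seen. Replicates were separate embryo pools.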

Additional observations from a re-analysis of the deposited data

Results flagged for a closer look

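In 145 groups of 4 libraries (27 genes and 2 summaries in 5 genotypes), a library was singled out when its gap to the nearest of the others exceeded Dixon's critical value. Chance alone gives this in about 1 in 20 groups, and 13 were found.

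In the summaries PA+PB replicate 3 stood apart, with 22 Mediator genes that had at least 1 count beside 27 in each of the other PA+PB libraries, and with a mean log2 CPM of 3.71 beside 5.0 to 5.13. In PB, replicate 4 was the only library with counts of 3 genes, at 14.6 CPM for *Cdk8*, 16.7 CPM for *CycC* and 25.6 CPM for *MED16*, and the other PB libraries were at 0. In PA, replicate 3 was the only library with counts of *Cdk8* (0.872 CPM) and *MED10* (1.84 CPM). PA replicate 2 was high for *MED25* (117 CPM beside 17.7 to 33.5 CPM) and for *MED28* (74.3 CPM beside 1.20 to 9.80 CPM).

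In WT, replicate 4 was high for *MED1* (433 CPM beside 279 to 292 CPM) and replicate 3, the library labelled with the later stage, was high for *MED30* (11.3 CPM beside 3.14 to 4.04 CPM). In the null, replicate 1 was low for *MED21* (22.3 CPM beside 25.3 to 25.9 CPM) and replicate 3 was low for *MED8* (20.2 CPM beside 24.4 to 25.3 CPM).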

How the results depend on the processing

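Under the alternatives 1060 recomputed log2 fold changes of the genes above stayed on their side of 0 and of the threshold, 57 passed the threshold, 4 fell short of it and 31 turned their sign, and the cause was not tested. The DESeq2 Wald test called 3 Mediator genes in the null against WT, 1 in the null against PA+PB, 2 in PA against WT, 4 in PA against PA+PB, 1 in PB against WT, 4 in PB against PA+PB, 2 in PA against the null and 3 in PA against PB. With only the groups compared 16 were called in the null against WT, 0 in PB against PA+PB and 4 in PA against the null. Over all genes 3979 of 10862, 3 of 8541 and 1085 of 9829 were called. When the factor was dropped as well the Mediator calls were 11, 0 and 2. There were 3 in the null against PA+PB, where 1421 of all genes were called. With 2 factors 2 were called in PB against PA+PB, where 1509 of all 10904 genes were called. With 3 factors 2 Mediator genes were called there and 1 each in PB against WT, PA against the null, PB against the null and PA against PB. Over all genes the calls with 3 factors were 644, 290, 852, 204 and 146 in the same order. Without the library of fewest genes in each of PA, PB and PA+PB 4 Mediator genes were called in the null against WT (background 4.55% higher and 10.5% lower). In that fit 2 were called in PB against WT, 3 in PA against the null and 1 in PB against the null. The fits without a factor in only the groups compared, without a factor on DESeq2 size factors and without those 3 libraries were chosen after seeing the data. With 1 library left out at a time the calls ranged from 0 to 1 in the null against WT, PA against WT, PA against the null, PB against the null and PA against PB, from 0 to 4 in PA against PA+PB and PB against WT and from 0 to 3 in PB against PA+PB, and were 0 in the null against PA+PB and in WT against PA+PB. *MED22* in PB against PA+PB kept its direction in each of these (−4.62 to −3.29) and fell short of the threshold also with no factor and only the groups compared (−3.98). The 4 Mediator calls in PA against PA+PB were reached without PB replicate 1, where 580 of 11443 genes were called. Those in PB against WT were reached without PB replicate 4, where 730 of 11214 were called. Counts of Mediator calls given here without the count over all genes are not read as results about these genes. The log2 fold change of *MED24* in the null against WT turned to 0.12 with DESeq2 size factors, 0.088 with no filter, 0.048 without a factor, 0.05 with 2 factors, 0.21 with only the groups compared, 0.22 with no factor and DESeq2 size factors and 0.31 without the 3 libraries, and against PA+PB to −0.40 with 3 factors (−0.69 to 0.37 with 1 library left out). That of *Cdk8* against WT turned to 1.58 without a factor, 1.70 with 3 factors, 0.60 by the Wald test, 2.04 with only the groups compared, 1.36 without the factor in those groups, 1.72 with no factor and DESeq2 size factors and 2.11 without the 3 libraries (−1.76 to 0.32 with 1 library left out). Against PA+PB it turned in the same order to 1.65, 1.12, 0.70, 0.085, 1.53, 1.68 and 1.24 (−2.23 to 0.73). With only the groups compared *MED17* (−0.031) and *MED30* (−0.69) turned against PA+PB. With 1 library left out *MED14* in the null against PA+PB ranged from −0.067 to 0.76 and *MED17* against WT from −0.0039 to 0.84. Over all genes tested, the calls in the null against WT were 502 and ranged from 161 with no filter to 3979 with only the groups compared (182 to 811 with 1 library left out), those in the null against PA+PB were 371 and ranged from 34 without null replicate 2 to 1421 without the factor in those groups, and those in PB against PA+PB were 728 and ranged from 3 with only the groups compared to 2373 by the Wald test (64 to 1199 with 1 library left out). DESeq2 size factors changed the split in PA against the null from 204 higher and 47 lower to 22 and 23, and in PB against WT from 21 and 74 to 49 and 88. Libraries of the same replicate number did not deviate together (a correlation over 0.1 in 7 of 40 pairs, and 5 of 20 libraries correlated best with their own number), so the numbers were not taken as pairs. With the replicate number as a block *MED22* in PB against PA+PB was still called (−3.96, FDR = 0.0266, edgeR) and 0 Mediator genes were called in the other comparisons. In each genotype the median number of Mediator genes detected did not move under thinning, and the mean over libraries of their mean log2 CPM moved by less than 1 SD with another prior count and with DESeq2 size factors, whereas WT replicate 3 by itself moved from 5.21 to 4.88 with the latter.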

Other observations

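The remaining marker lists are given as summed CPM. The neuronal markers *elav*, *nSyb*, *Syt1* and *brp* summed to 619 to 814 CPM in the null, 274 to 614 CPM in WT and 58.2 to 654 CPM in PA+PB, so that the null libraries were above all WT libraries but overlapped with PA+PB. The hemocyte markers *srp*, *Pxn* and *Hml* summed to 225 to 307 CPM in the null, which overlapped with WT (75.0 to 253 CPM) and was above all PA+PB libraries (28.5 to 222 CPM). The muscle list was at 4189 to 6284 CPM in the null, at 702 to 13578 CPM in WT and at 619 to 5198 CPM in PA+PB. The epidermal list was at 506 to 706 CPM in the null, at 247 to 2768 CPM in WT and at 45.5 to 881 CPM in PA+PB, and both lists overlapped between the null and either control.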
